A study of Mus musculus with 5 samples.

Results

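Rab GTPases are small membrane-bound proteins that direct traffic between the compartments of a cell. The family was taken as every row of the expression table whose symbol is Rab followed by a number and at most a letter and a digit. That rule gave 59 of 27678 genes and used no measured value. Rab3b, Rab3c, Rab9b and Rab40b were at 0 in all 5 libraries and are counted as not expressed, and 55 genes were above 0. The expression test covered 54 of these, those with at least 10 normalized counts in at least 2 libraries, and left out Rab25, at 0 to 12.4 normalized counts.

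RNA-seq compared 3 Etv3-/- with 2 Etv3+/+ libraries of mouse dendritic cells, the cells that take up antigen and show it to T cells. Etv3 encodes a repressor of the ETS family of transcription factors. Marrow progenitors of both genotypes became dendritic cells over 6 days in the cytokines GM-CSF (20 ng/ml) and IL-4 (5 ng/ml). The sorted gate kept live CD11c-positive cells with intermediate CD11b and high MHC class II and dropped CD115-positive ones. The sources used here do not give strain, age, the disrupted part of Etv3 or whether replicates came from separate animals. P-values therefore measure the spread between these libraries, which may be technical.

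A Rab protein cycles between a GDP-bound form, held in the cytosol by a GDP dissociation inhibitor, and a GTP-bound form on a membrane. Exchange factors load GTP, activating proteins trigger its hydrolysis, and effectors bind the GTP form to move, tether or fuse vesicles. Each compartment carries its own Rabs, such as Rab5 on early endosomes, Rab11 on recycling endosomes and Rab7 on late endosomes. In dendritic cells these routes carry antigen and MHC molecules between the surface, phagosomes and lysosomes.

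The libraries held 42983550 to 59694413 reads in Etv3-/- and 56445754 and 68253936 reads in Etv3+/+, recovered from the normalized values. Etv3 itself had 18691, 20416 and 22856 normalized counts in Etv3-/- and 23050 and 25447 in Etv3+/+ libraries (limma adjusted p = 0.567), a gene total that does not check the knockout. All 7 dendritic cell markers were above 0 in every library, and their sum was 1914302 to 2592803 in Etv3-/- against 841434 to 1216653 normalized counts in Etv3+/+. Etv3-/- libraries were above both Etv3+/+ libraries for 5 of the 7, and Ciita, the activator of MHC class II genes, passed the test (limma adjusted p = 0.0380). The count tests edgeR and DESeq2 called 1 and 3 of the 7 higher, where 0.825% and 4.6% of all tested genes were. Markers of macrophages and monocytes were present too, and the sum of 9 was 14474 to 19958 in Etv3-/- against 5860 to 6619 normalized counts in Etv3+/+. Fcgr1 was at 0 in Etv3-/- replicate 2 and in both Etv3+/+ libraries, and the other markers were above 0 throughout. Of those 9, Etv3-/- libraries were above both Etv3+/+ libraries for 7, and C1qa, C1qb and C1qc passed the test. At an unadjusted p under 0.05 (limma) 7 of the 9 were higher, and edgeR and DESeq2 called 3 and 6 higher. Ly6c2 went the other way with overlap, averaging 343 in Etv3-/- and 501 in Etv3+/+. Csf1r, which encodes the CD115 that the gate dropped, had 3493, 2403 and 2889 in Etv3-/- and 1018 and 1348 normalized counts in Etv3+/+. The sum of 5 B cell markers was 2048 to 3121 in Etv3-/- and 845 to 934 in Etv3+/+. Of these, 3 were separated upward and 0 passed the test, and Ms4a1 went the other way (log2 fold change -1.01). At an unadjusted p under 0.05 (limma) 3 of the 5 were higher, and edgeR and DESeq2 called 0 and 3 higher. The sum of 4 T cell markers was lower, at 550 to 895 in Etv3-/- and 1007 to 1074 in Etv3+/+. Of those 4, 2 had a positive log2 fold change and 0 passed (1 lower at an unadjusted p under 0.05, and 0 by edgeR or DESeq2). The neutrophil marker sums overlapped between genotypes. In sorted bulk samples, fewer cells of a type and less RNA per cell cannot be told apart.

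Summed Rab transcripts took a smaller share of normalized counts in the Etv3-/- libraries, yet the only members that passed the test, Rab20 and Rab44, rose. Summed over the family, Rab genes held 0.531%, 0.646% and 0.462% of normalized counts in the Etv3-/- libraries, against 0.711% and 0.816% in the Etv3+/+ libraries. The genotypes did not overlap, and without the most abundant member, Rab8b, the shares were 0.444%, 0.519% and 0.380% in Etv3-/- and 0.534% and 0.606% in Etv3+/+. Such a sum is weighted toward abundant members and need not describe the family. Rab8b, Rab11a and Rab10, for example, are abundant and had 40.6%, 39.5% and 44.5% GC, beside a median of 49.7% over all tested genes. The part of GC content in the summed share was not tested, and no background share was computed. Of 54 tested members, 2 rose and 0 fell (limma, adjusted p under 0.05). Among all 13813 tested genes, 0.876% rose and 0.319% fell. At an unadjusted p under 0.05, 4 members were higher and 9 lower, where 8.02% and 9.93% of all genes were. edgeR on recovered reads called 2 members higher and 0 lower, beside 0.825% and 0.319% of all genes, and DESeq2 called 3 higher and 5 lower, beside 4.6% and 3.86%.

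Counts of members with separated values leaned downward. For 20 of 54 members every Etv3-/- library lay below both Etv3+/+ libraries, and for 5 every one lay above. These are 37.0% and 9.26% of the members, where 19.3% and 16.7% of all tested genes were separated in those directions. The log2 fold change was negative for 34 members and positive for 20, with a median of -0.24 beside -0.06 over all tested genes. The base composition of the transcripts moved with this pattern, and its values are given after the members. The share of mitochondrial transcripts was at most 3.17% in Etv3-/- and was 1.98% and 6.64% in Etv3+/+, and its part in the pattern was not tested.

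**Figure D1:**
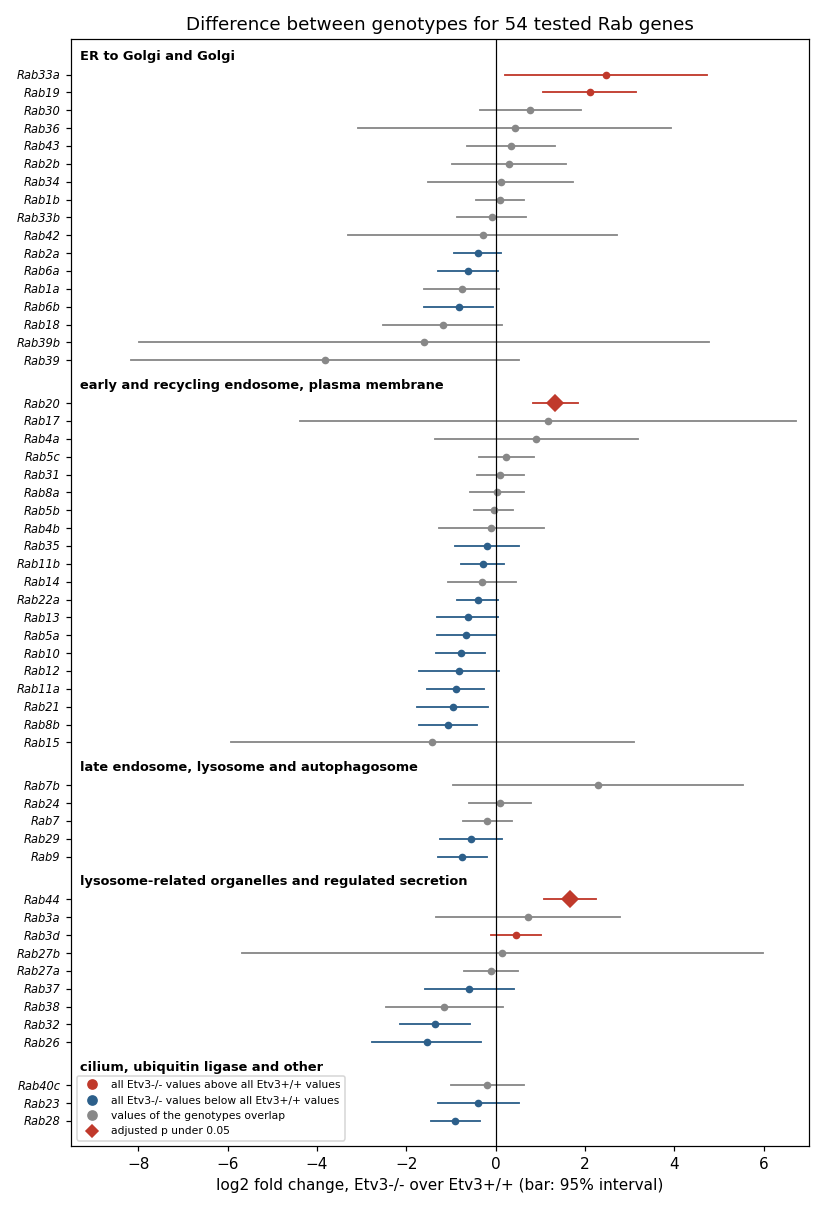
Log2 fold change of Etv3-/- over Etv3+/+ with its 95% interval (horizontal axis) for 54 tested Rab genes, ordered within the role groups. Diamonds mark Rab20 and Rab44, which passed an adjusted p under 0.05. Red and blue mark the 5 genes whose Etv3-/- values all lie above and the 20 whose values all lie below those of Etv3+/+, and grey marks overlap.

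Rab20 acts in the maturation of endosomes and phagosomes. Its gene (chromosome 8, GRCm38) had 9249, 11381 and 13027 normalized counts in Etv3-/- and 4392 and 4410 in Etv3+/+ libraries. Every Etv3-/- library was more than the spread within either genotype above both Etv3+/+ libraries, whose values nearly coincide. The mean was 11219 ± 1894 in Etv3-/- (SD, n = 3) and 4401 ± 12.1 in Etv3+/+ (SD, n = 2), a 2.55-fold rise. On the log2 scale the rise was 1.34, with a 95% interval of 0.84 to 1.83 and a limma adjusted p of 0.0354. The overlapping gene E230013L22Rik, on the opposite strand, averaged 63.6 in Etv3-/- and 24.3 normalized counts in Etv3+/+, far below Rab20. Gm20100 overlaps Rab20 on its own strand, and the level of Gm20100 was not looked at. Per kb of exon, Rab20 was the fifth most abundant member over all 5 libraries, at 8060 normalized counts per kb in Etv3-/- and 3162 in Etv3+/+.

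Rab44 is an unusually large Rab with calcium-binding EF-hand motifs, known in mice for granule release by mast cells. It had 4569, 3314 and 3083 normalized counts in Etv3-/- against 1142 and 1134 in Etv3+/+ libraries. The lowest Etv3-/- value was thus well above the higher Etv3+/+ value. The means were 3655 ± 800 in Etv3-/- (SD, n = 3) and 1138 ± 5.54 in Etv3+/+ (SD, n = 2), a 3.21-fold rise with a log2 fold change of 1.66 (95% interval 1.07 to 2.25, limma adjusted p = 0.0305). Rpl35a-ps3 overlaps Rab44 on the opposite strand, and the level of Rpl35a-ps3 was not looked at. The 4 markers of mast cells and basophils summed to 1330 to 4422 in Etv3-/- and 3603 to 3676 normalized counts in Etv3+/+, which overlap. Of these, 0 were called by limma (0 at an unadjusted p under 0.05, and 0 by edgeR or DESeq2). The dendritic cell, macrophage and B cell marker sums given above were higher in Etv3-/-, as Rab20 and Rab44 were, and the T cell sum was lower. The part of these cell types in the rises of Rab20 and Rab44 was not tested. Both genes lost their call without any 1 of the 5 libraries, with a limma adjusted p of 0.105 to 0.123 for Rab20 and 0.0926 to 0.134 for Rab44.

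Further members were higher in every Etv3-/- library without passing the test. Rab19, a Golgi-associated Rab, had 737, 1194 and 1449 normalized counts in Etv3-/- and 179 and 355 in Etv3+/+ libraries (log2 fold change 2.10, limma adjusted p = 0.0761). DESeq2 called this difference (adjusted p = 0.000659). Rab33a, a Golgi Rab tied to autophagy and secretion, was low throughout, at 101, 40.9 and 42.1 in Etv3-/- and 11.2 and 7.70 in Etv3+/+ libraries. Its log2 fold change of 2.47 was the highest in the family (95% interval 0.20 to 4.74, limma adjusted p = 0.246), and its interval is wide. Rab3d, a Rab of secretory granules, had 2810, 2518 and 3073 in Etv3-/- and 2413 and 1723 in Etv3+/+ libraries, which barely separate the genotypes (log2 fold change 0.45, limma adjusted p = 0.379).

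**Figure D2:**
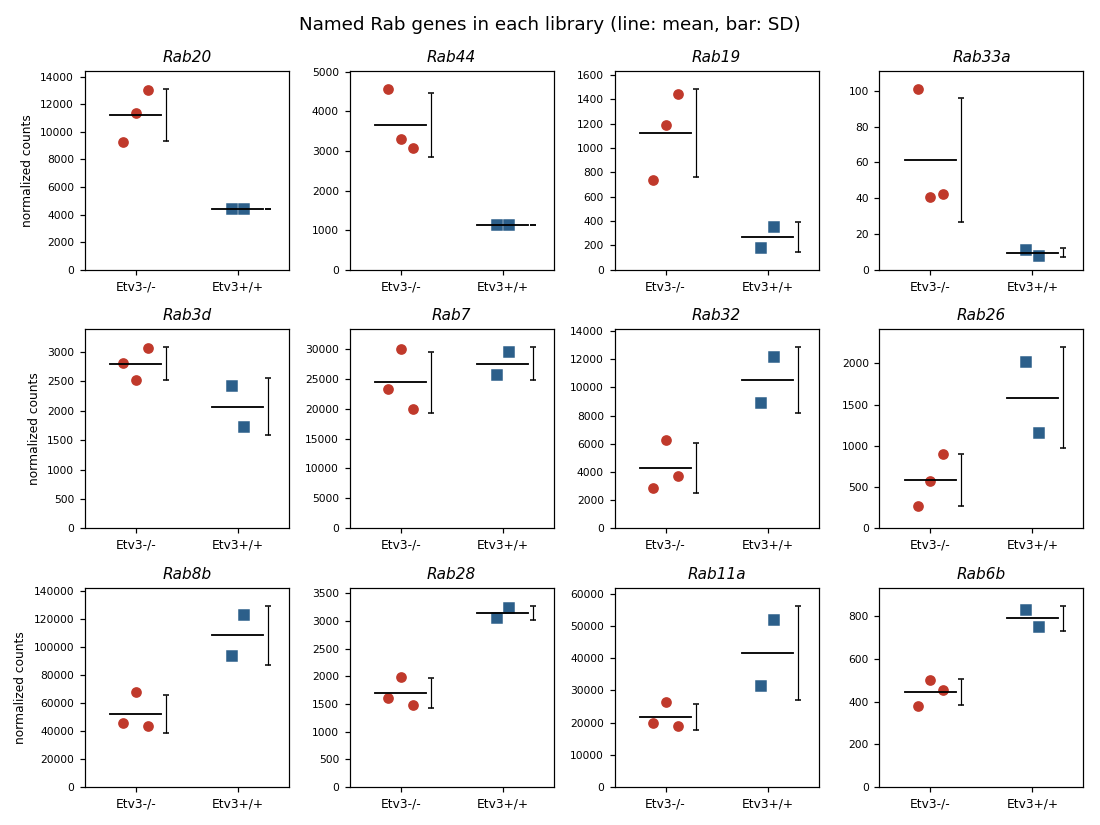
Normalized counts (vertical axes, from 0) of 12 Rab genes in each Etv3-/- and Etv3+/+ library, with the mean and SD of each genotype. In Rab20, Rab44, Rab19, Rab33a and Rab3d all 3 Etv3-/- points lie above both Etv3+/+ points, in Rab7 the genotypes overlap, and in the other 6 all Etv3-/- points lie below.

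Among Rabs of lysosome-related organelles and regulated secretion, 9 of 11 members were tested, and limma and edgeR called Rab44 alone. Rab32 and its relative Rab38 build melanosomes in pigment cells, and Rab32 also acts at phagosomes and mitochondria. Rab32 had 2856, 6235 and 3732 normalized counts in Etv3-/- against 8887 and 12158 in Etv3+/+ libraries. All 3 Etv3-/- values were lower, with a log2 fold change of -1.36 (95% interval -2.15 to -0.57, limma adjusted p = 0.110). With the replicate number as a block Rab32 passed (log2 fold change -1.30, limma adjusted p = 0.0364), and with DESeq2 as well (adjusted p = 0.0111). Replicate number 3 occurs in Etv3-/- alone, so the block takes that library out of the genotype difference. Without a block, the same libraries gave the same log2 fold change of -1.30 and no call (limma adjusted p = 0.254). Rab38 averaged 214 ± 119 in Etv3-/- (SD, n = 3) and 445 ± 141 in Etv3+/+ (SD, n = 2), and its genotypes overlapped by a narrow margin, at 350 in the highest Etv3-/- and 346 in the lowest Etv3+/+ library.

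Rab26, a Rab of secretory vesicles, had 272, 571 and 903 normalized counts in Etv3-/- and 2014 and 1149 in Etv3+/+ libraries, the lowest log2 fold change among the separated members at -1.55 (limma adjusted p = 0.196). Its locus overlaps Rab26os on the opposite strand, at 50.6, 6.19 and 51.7 in Etv3-/- and 14.9 and 29.1 in Etv3+/+, and Traf7 on its own strand, at 4696 ± 533 in Etv3-/- and 4330 ± 1189 in Etv3+/+. Rab27a, which guides lysosome-related organelles and, in dendritic cells, supplies oxidase to phagosomes, overlapped between genotypes at 2389, 3048 and 2535 in Etv3-/- and 3492 and 2308 in Etv3+/+ (log2 fold change -0.10, 95% interval -0.71 to 0.50). Rab37, a Rab of mast cell granules, was lower in all Etv3-/- libraries but with an adjusted p of 0.505 (limma). Rab3a and Rab27b were low, with means of 30.2 to 81.7 normalized counts in either genotype. Rab3b and Rab3c had no read, which allows at most 2.57 to 3.72 normalized counts per library for counting error alone.

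Rabs of early and recycling endosomes and the plasma membrane formed the largest role group. Of its 20 tested members, limma called Rab20 higher and 0 lower (4 lower at an unadjusted p under 0.05, 0 lower by edgeR and 3 by DESeq2). For 10 of the 20 all Etv3-/- values lay below those of Etv3+/+, and for 1 above, where 19.3% and 16.7% of all tested genes were separated in those directions. The group's median log2 fold change was -0.31. Rab8b, which carries cargo to the plasma membrane, was the most abundant Rab per kb of exon and is described first. It had 45204, 67678 and 43110 normalized counts in Etv3-/- and 93037 and 122924 in Etv3+/+ libraries. Its mean was 51997 ± 13620 in Etv3-/- (SD, n = 3) and 107980 ± 21133 in Etv3+/+ (SD, n = 2), with a log2 fold change of -1.07 (95% interval -1.73 to -0.41, limma adjusted p = 0.121). DESeq2 called Rab8b (adjusted p = 0.00702). Its close relative Rab8a was at 12558 ± 2024 in Etv3-/- and 12551 ± 3935 in Etv3+/+, with an interval of -0.57 to 0.62 on the log2 scale.

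Rab11a, the main Rab of recycling endosomes, had 19972, 26520 and 19069 normalized counts in Etv3-/- and 31331 and 52019 in Etv3+/+ libraries (log2 fold change -0.90, limma adjusted p = 0.167). Rab10, which moves vesicles to the surface, had 24176, 26231 and 19293 in Etv3-/- and 34251 and 45836 in Etv3+/+ (log2 fold change -0.78, limma adjusted p = 0.159). In both genes every Etv3-/- value was lower, and DESeq2 called both (adjusted p = 0.0342 for each). Rab21, which takes up integrins, averaged 7373 ± 2740 in Etv3-/- and 13809 ± 2850 in Etv3+/+ (log2 fold change -0.96, limma adjusted p = 0.206). Rab12, which sends transferrin receptor to lysosomes, averaged 3087 ± 1250 in Etv3-/- and 5186 ± 1124 in Etv3+/+ (log2 fold change -0.83, limma adjusted p = 0.314).

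The Rab5 paralogues of early endosomes did not all lean one way. Rab5a had 4387, 5227 and 3135 normalized counts in Etv3-/- and 5391 and 8008 in Etv3+/+, a separated but uncalled difference (log2 fold change -0.66, limma adjusted p = 0.283). Rab5b was within 5480 to 6107 in Etv3-/- and at 6343 and 5697 in Etv3+/+, with a log2 interval of -0.49 to 0.39. Rab5c averaged 1689 ± 249 in Etv3-/- and 1440 ± 289 in Etv3+/+ (log2 fold change 0.23). Rab22a, which serves recycling and, in dendritic cells, cross-presentation, had 2850, 2706 and 2990 in Etv3-/- and 3859 and 3690 in Etv3+/+ (log2 fold change -0.41, limma adjusted p = 0.341). Rab14 and Rab31, both abundant, overlapped between genotypes.

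Among Rabs of late endosomes, lysosomes and autophagosomes, 5 of 6 members were tested and 0 were called (1 at an unadjusted p under 0.05, and 0 by edgeR or DESeq2). Rab7, which leads late endosomes to lysosomes, had 23309, 29943 and 19950 normalized counts in Etv3-/- and 25555 and 29443 in Etv3+/+ libraries. These ranges overlap, with a log2 fold change of -0.19 (95% interval -0.74 to 0.36). Rab9, which returns receptors to the Golgi, averaged 3272 ± 599 in Etv3-/- and 5465 ± 600 in Etv3+/+ (log2 fold change -0.75, limma adjusted p = 0.168), and all Etv3-/- values were lower. Rab29, a partner of the kinase LRRK2, was also lower in all Etv3-/- libraries (log2 fold change -0.55, limma adjusted p = 0.385). Rab7b spread over 68.1 to 419 normalized counts in Etv3-/- and 5.99 to 190 in Etv3+/+, and its genotypes overlapped.

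Rabs of the ER and Golgi had 17 members, all tested, and 0 called by limma or edgeR (3 at an unadjusted p under 0.05, and Rab19 by DESeq2). For 2 of them, Rab19 and Rab33a, Etv3-/- values lay above those of Etv3+/+, and for 3, Rab2a, Rab6a and Rab6b, below. These are 11.8% and 17.6% of the 17, close to the 16.7% and 19.3% of all tested genes separated in those directions. Rab6b, a Rab of retrograde Golgi transport, had 380, 502 and 456 normalized counts in Etv3-/- and 832 and 750 in Etv3+/+ (log2 fold change -0.83, limma adjusted p = 0.252). Rab2a, of ER to Golgi traffic, averaged 9658 ± 1416 in Etv3-/- and 12863 ± 2669 in Etv3+/+ (log2 fold change -0.41, limma adjusted p = 0.395). Rab1b, of the same route, was close between genotypes, at 10135 ± 1066 in Etv3-/- and 9610 ± 2669 in Etv3+/+. Rab43, which mouse cross-presenting dendritic cells use, was at 326 ± 22.4 in Etv3-/- and 259 ± 67.4 in Etv3+/+ (log2 interval -0.63 to 1.34). Rab18, a Rab of the ER and lipid droplets, ran from 3443 in Etv3-/- replicate 3 to 24137 in Etv3+/+ replicate 2, and its genotypes overlapped.

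The remaining group held Rab23, Rab28, Rab40b and Rab40c, which act in Hedgehog signalling, cilia and ubiquitin ligases. Rab28 had 1611, 1993 and 1471 normalized counts in Etv3-/- and 3055 and 3235 in Etv3+/+ libraries (log2 fold change -0.91, limma adjusted p = 0.121). All Etv3-/- values were lower, and DESeq2 called the gene (adjusted p = 0.0168). Rab23 averaged 301 ± 2.03 in Etv3-/- and 396 ± 44.1 in Etv3+/+ (log2 fold change -0.39), and Rab40c overlapped between genotypes.

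The members also differed widely in level per kb of exon. Rab8b led at 10986 ± 2878 normalized counts per kb in Etv3-/- (SD, n = 3) and 22814 ± 4465 in Etv3+/+ (SD, n = 2). Rab11a, Rab7, Rab10, Rab20 and Rab2a followed by mean over all libraries. In Etv3-/- the order began with Rab8b, Rab7 at 9349 ± 1948 and Rab20 at 8060 ± 1361, and in Etv3+/+ with Rab8b, Rab11a at 13929 ± 4889 and Rab10 at 11399 ± 2332. In Etv3-/- neighbours in the order Rab7, Rab20, Rab11a (7304 ± 1359) and Rab10 (6613 ± 1014) differed from one another by less than their SDs. Rab8b took 12.5%, 15.2% and 12.7% of the family's level per kb in Etv3-/- and 19.6% and 20.9% in Etv3+/+ libraries. At the low end, Rab27b, Rab15, Rab39b and Rab17 averaged 4.16 to 16.9 per kb and were each at 0 in at least 1 library.

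**Figure D3:**
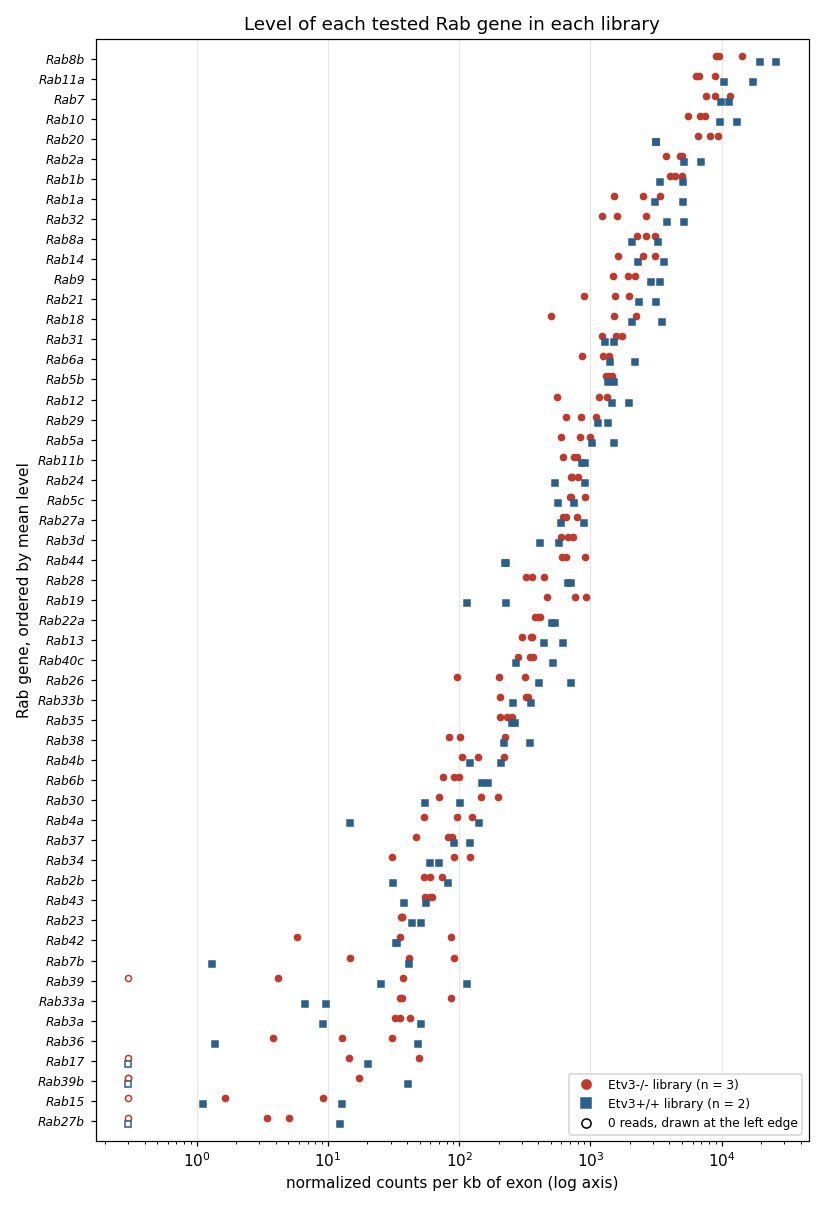
Normalized counts per kb of exon (log axis) of each of the 54 tested Rab genes in each Etv3-/- (circles) and Etv3+/+ (squares) library, ordered by mean. Rab8b is at the top, and Rab20 is the one abundant gene whose Etv3-/- points all lie to the right of its Etv3+/+ points. Open points are libraries with 0 reads.

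Balance within pairs of related genes was compared as the first gene's share of the pair's level per kb. Rab8a made up 19.1%, 15.7% and 25.5% of the Rab8 pair in Etv3-/- and 14.3% and 7.44% in Etv3+/+ libraries, so the Etv3-/- shares were higher throughout. Rab33a made up 15.1% ± 5.39 of its pair with Rab33b in Etv3-/- (SD, n = 3) and 2.73% ± 1.23 in Etv3+/+ (SD, n = 2), also without overlap. Rab5a made up 48.0%, 58.3% and 45.9% of its pair with Rab5c in Etv3-/- and 64.5% and 67.0% in Etv3+/+, lower throughout. Rab22a was likewise lower in its pair with Rab31, at 21.1% ± 3.74 in Etv3-/- (SD, n = 3) and 27.3% ± 1.59 in Etv3+/+ (SD, n = 2). The other 9 pairs overlapped, among them Rab32 with Rab38, at 93.2% ± 1.54 in Etv3-/- and 93.8% ± 3.04 in Etv3+/+. These shares are descriptions with no test.

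**Figure D4:**
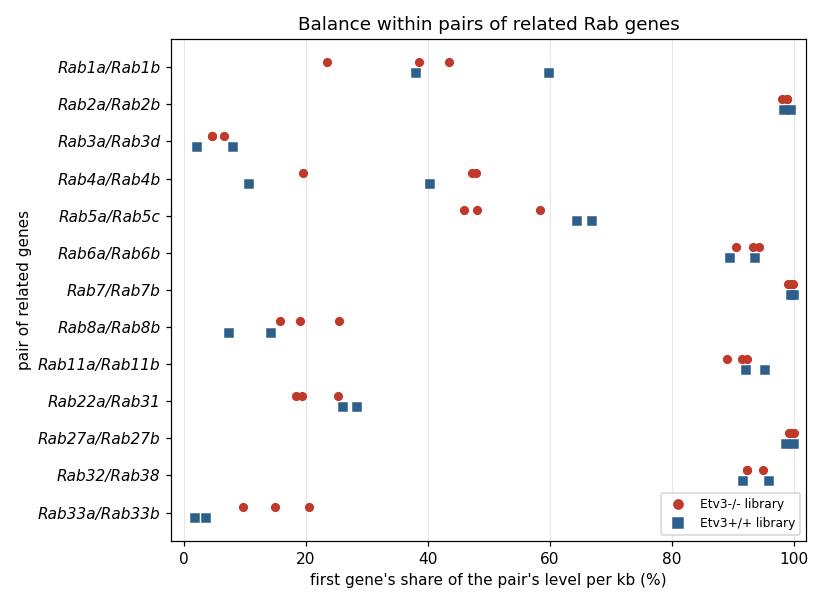
Share of the first gene in the length-adjusted level of 13 pairs of related Rab genes (horizontal axis, %), for each Etv3-/- and Etv3+/+ library. The shares separate by genotype for Rab5a/Rab5c, Rab8a/Rab8b, Rab22a/Rab31 and Rab33a/Rab33b.

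Base composition differed between libraries in a way that reached the Rab genes. Across 13609 genes, which are not independent replicates, a library's deviation from the gene mean followed GC content most in Etv3-/- replicate 3, with a Spearman rho of 0.41, and Etv3+/+ replicate 2, with -0.42. Across the 54 Rab genes that rho was 0.41, -0.01 and 0.41 for Etv3-/-, against -0.06 and -0.48 for Etv3+/+. The log2 fold change itself correlated with GC content at a Spearman rho of 0.48 over the 54 Rab genes and 0.29 over all genes, which share the same 5 libraries. The 20 separated lower members had a median GC content of 47.2%, and the 5 separated higher ones 53.5%.

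A correction of each library for GC content and length was chosen after seeing the data. With it, some members of low GC content had a smaller difference, while that of Rab32 and Rab26, of higher GC content, was of similar or greater size. Rab28, at 36.8% GC, had a log2 fold change of -0.91 before and -0.09 after correction. Rab11a, at 39.5% GC, had -0.90 before and -0.28 after, and Rab8b, at 40.6% GC, -1.07 before and -0.50 after. Rab32, at 47.7% GC, had -1.36 before and -1.35 after (limma adjusted p = 0.0616), and Rab26, at 55.8% GC, -1.55 before and -1.73 after. Rab20 and Rab44 still passed (limma adjusted p = 0.0194 and 0.0233). After correction 18 of 54 members were separated downward and 6 upward (33.3% and 11.1%), beside 18.0% and 18.3% of all tested genes. The median over the Rab genes was -0.22 after correction.

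**Figure D5:**
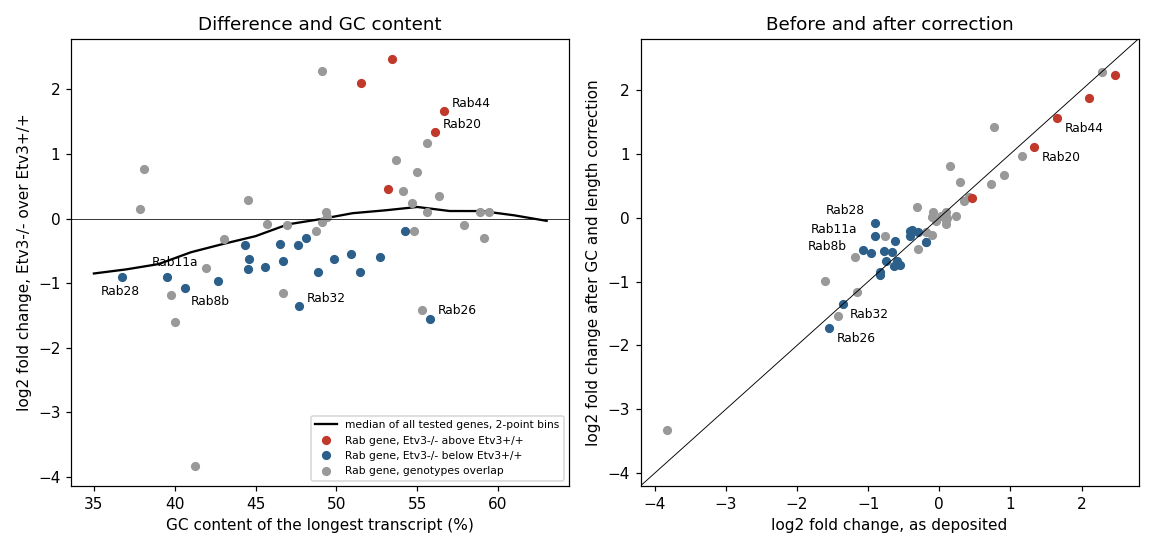
Left, log2 fold change of Etv3-/- over Etv3+/+ against GC content of the longest transcript (%) for 54 Rab genes, with the median of all tested genes in bins of GC content as a black line. Right, the same log2 fold changes as deposited and after GC and length correction, with the line of equality. Rab28 and Rab11a lie near the black line on the left and Rab8b below it, and all 3 lie above the line of equality on the right, while Rab32 and Rab26 stay near or below that line.

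Promoter windows, from 250 bases before to 50 after the transcription start, were available from RefSeq (GRCm38.p6) for 48 of 59 Rab genes. They are shown for a called member, Rab20, and for separated members in each direction that hold the letters CCGGAA, a form of the GGAA core that ETS factors bind. The windows lie at chr8:11478591-11478890 on the minus strand for Rab20, chr6:39381103-39381402 on the plus strand for Rab19 and chr10:10558158-10558457 on the minus strand for Rab32. Capitals mark CCGGAA or its reverse complement.
Rab20: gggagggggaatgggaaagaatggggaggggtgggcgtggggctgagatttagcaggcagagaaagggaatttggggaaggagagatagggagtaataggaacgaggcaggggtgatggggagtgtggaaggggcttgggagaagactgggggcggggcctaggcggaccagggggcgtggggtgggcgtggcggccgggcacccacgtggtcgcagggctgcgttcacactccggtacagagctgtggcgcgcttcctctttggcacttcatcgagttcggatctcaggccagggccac
Rab19: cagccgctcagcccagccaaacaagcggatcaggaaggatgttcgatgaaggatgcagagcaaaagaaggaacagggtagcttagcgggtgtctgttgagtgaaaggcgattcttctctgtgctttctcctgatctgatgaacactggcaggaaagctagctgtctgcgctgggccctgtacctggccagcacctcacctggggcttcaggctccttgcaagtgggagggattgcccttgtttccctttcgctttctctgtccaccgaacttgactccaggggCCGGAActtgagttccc
Rab32: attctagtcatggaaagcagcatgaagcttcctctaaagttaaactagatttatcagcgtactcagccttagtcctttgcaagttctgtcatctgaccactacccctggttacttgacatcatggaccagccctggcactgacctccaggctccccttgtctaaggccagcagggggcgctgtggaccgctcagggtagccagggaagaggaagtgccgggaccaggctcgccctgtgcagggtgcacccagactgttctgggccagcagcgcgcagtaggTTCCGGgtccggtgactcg

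The letters CCGGAA, searched on both strands, were in 15 of 60 windows of Rab genes and in 4894 of all 32851 windows (14.9%). The Rab20 window had no CCGGAA, and Rab44 had no window. The shorter GGAA core was not counted, and each window shown holds it outside the capitals as well. Counted by gene, 14 of 48 Rab genes with a window held the letters (29.2%). Among tested members with a window, 1 of 4 that were separated upward, 7 of 17 separated downward and 6 of 22 with overlap held the letters. A gene can have several windows, and no share by gene was computed over all genes. The 14.9% of windows is therefore no background for these counts. Those separated downward were Rab6a, Rab10, Rab11a, Rab13, Rab28, Rab32 and Rab35. The one separated upward was Rab19, and those with overlap were Rab7, Rab8a, Rab14, Rab17, Rab24 and Rab34. A match describes letters in a window and is no evidence of binding.

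No gene of the machinery that loads, switches and reads Rabs was called in the main limma fit or by edgeR. On 4 lists taken from general knowledge, 0 of 124 tested genes passed in either direction (limma; 8 higher and 11 lower at an unadjusted p under 0.05, 0 by edgeR, 4 higher and 6 lower by DESeq2). Calls were rare among all tested genes too: limma called 0.876% higher and 0.319% lower, and edgeR 0.825% and 0.319%. The absence of calls thus does not set these lists apart. Of all tested genes, 8.02% were higher and 9.93% lower at that unadjusted p, and 4.6% and 3.86% by DESeq2. The 8 genes for GDP dissociation, escort and prenylation had a median log2 fold change of -0.41. The dissociation inhibitor Gdi2 had 71317, 86027 and 71814 normalized counts in Etv3-/- and 85496 and 149856 in Etv3+/+ libraries. These values overlap between genotypes, with a log2 fold change of -0.57 (limma adjusted p = 0.364).

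Exchange factors split evenly, with 17 positive and 17 negative log2 fold changes among 34 and a median of 0.03. The most abundant were the Rab5 exchange factors Rin3 (log2 fold change 0.41) and Gapvd1 (0.06), and neither passed. The 37 activating proteins had a median of -0.16, and the most abundant were Tbc1d4, which acts on Rab10 and its relatives (-0.27), and Tbc1d15, which acts on Rab7 (-0.73, limma adjusted p = 0.262). The 45 tested effectors and binding partners had a median of -0.14, led in abundance by the kinase Lrrk1 (-0.10) and the Rab8 effector Ehbp1l1 (0.28).

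A few machinery genes that stood apart by value are given as examples, picked after their values were seen. Gcc2 and Mon1b had the lowest limma adjusted p on the lists, and Exph5 had the lowest log2 fold change, at -5.75. Ric1, Tbc1d24 and Dennd2d, among others, had a lower adjusted p (limma, 0.102, 0.112 and 0.116) than Exph5 below. Gcc2, a golgin that binds Rab6, had 538, 736 and 542 normalized counts in Etv3-/- and 1691 and 1693 in Etv3+/+ libraries (limma adjusted p = 0.0640). Exph5, a Rab27 effector, had 0, 0 and 1.75 in Etv3-/- and 117 and 47.1 in Etv3+/+ (limma adjusted p = 0.122). Mon1b, part of the Rab7 exchange factor, had 4891, 5248 and 6279 in Etv3-/- and 3028 and 2195 in Etv3+/+ (limma adjusted p = 0.0787). In each the genotypes were separated and limma and edgeR made no call. DESeq2 called Gcc2 (adjusted p = 0.000206), Exph5 (adjusted p = 0.00846) and Mon1b (adjusted p = 0.000925).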

How the data were processed

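Gene expression was measured by RNA-seq in 3 Etv3-/- and 2 Etv3+/+ libraries, grouped by the genotype label. The authors deposited normalized counts, a signal on a scale set library by library. DESeq2 1.26.0, STAR 2.7.3a, Trimmomatic 0.36, Subread 1.6.3, featureCounts and the mm10 build are named in the submitters' processing notes. The sources used here do not give their roles, the annotation or the strand setting, so values of a gene that overlaps another are uncertain. Low-input cDNA libraries, per the labels' protocols, carry no molecular identifiers, so read limits cover counting error only. Values were whole multiples of 1 step per library, 0.856 to 1.24 normalized counts per read, and 100% of the quotients lay within 0.1 of whole reads. edgeR on these reads called 114 genes higher and 44 lower.

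The 13813 genes that reached 10 normalized counts in at least 2 libraries entered limma 3.58.1 (trend; R 4.3.3) on log2(value + 1), two-sided, with Benjamini-Hochberg adjustment over all tested genes and a threshold of 0.05. That scale can understate changes of low genes. For low genes with zeros it can also exceed or reverse the difference of the means. Rab27b, for example, averaged 30.2 in Etv3-/- and 65.7 in Etv3+/+, with a log2 fold change of 0.15. Alternatives included edgeR 4.0.16 and DESeq2 1.42.0 on recovered reads, other pseudocounts, filters and scalings, each library left out, and a replicate block. GC content came from the longest GENCODE M21 transcript and length from the union of exons, found for 98.5% of tested genes. The correction was a local regression with a span of 0.3. Members and lists were chosen with earlier results of these data known. A rule named 16 members. It took those past the threshold and the 6 most abundant per kb. It also took the separated ones with the 8 highest and 8 lowest log2 fold changes. Other members shown with values were picked outside that rule. The procedure was run on simulated data drawn without a GC trend, so that run does not bear on the trend seen here. Figures used matplotlib 3.10.9.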

Additional observations from a re-analysis of the deposited data

How the results depend on the processing

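The direction of the 16 named Rab genes held in all 20 alternative settings, or in those that tested the gene (Rab33a did not reach a filter of 50 normalized counts), except for Rab7 without the libraries with the strongest GC trend, Etv3+/+ replicate 2 and Etv3-/- replicate 3 (log2 fold change 0.048). For separated members that outcome is fixed where a library is left out. Rab20 kept its call in 12 of 20 settings and Rab44 in 13. With single libraries left out, Rab genes called higher numbered 0 to 0 (limma, with 8 to 17 at an unadjusted p under 0.05), genes called higher 0 to 73 and lower 0 to 7, and the Rab median ran from -0.40 (without Etv3+/+ replicate 2) to -0.26. These fits have fewer samples, and without 1 Etv3+/+ library the other is assumed to vary like the rest. Without both libraries of strongest GC trend, 6 genes were called higher, 1 lower and 0 Rab genes, with 8 Rab genes at an unadjusted p under 0.05 and a Rab median of -0.36. limma without trend called 44 genes higher and 0 Rab genes, with 11 at an unadjusted p under 0.05. A pseudocount of 5 gave 70 genes lower. DESeq2 called 636 genes higher and 533 lower, 5 Rab genes lower, and 4 and 6 machinery genes. The replicate block gave 118 genes lower, among them 1 Rab gene (Rab32) and 1 machinery gene. The GC and length correction gave 225 higher and 106 lower, with 3 machinery genes higher, and with the block 1 Rab gene higher (Rab44). The cause of these changes was not tested. Number 3 occurs in Etv3-/- alone, and the correlations of same-numbered libraries, -0.03 and 0.04, rest on 1 contrast, so whether numbers pair libraries cannot be told. With 2 against 3 libraries the smallest exact permutation p is 0.1, which Rab20 and Rab44 each reached (two-sided).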

Other observations

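Genes named for Rabs but outside the family were looked at for values alone. Rabl3, a Rab-like GTPase gene, had 629, 425 and 486 normalized counts in Etv3-/- and 1037 and 1034 in Etv3+/+ libraries (log2 fold change -1.03, limma adjusted p = 0.172). Rabl6 averaged 3400 ± 105 in Etv3-/- (SD, n = 3) and 3220 ± 846 in Etv3+/+ (SD, n = 2), and its genotypes overlapped. The antisense gene Rab10os was at 970 ± 229 in Etv3-/- and 1242 ± 436 in Etv3+/+, a small fraction of Rab10, whose reads it could share if strand was not used. Pseudogenes took few reads: Rab11b-ps2 was at 155 ± 33.3 in Etv3-/- and 150 ± 23.6 in Etv3+/+, and Rab7-ps1 at 40.0 ± 5.21 in Etv3-/- and 26.4 ± 2.22 in Etv3+/+. Prelid1, which overlaps Rab24 on the opposite strand, was at 16497 ± 3025 in Etv3-/- and 9752 ± 1738 in Etv3+/+ (log2 fold change 0.75, limma adjusted p = 0.167), above the level of Rab24 itself, so the value of Rab24 is uncertain where strand was not used.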
